A study of Homo sapiens with 8 samples.

Results

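The genes described here encode the super elongation complex and the 7SK particle that holds its kinase in reserve. They are the YEATS-domain readers MLLT1 and MLLT3, the scaffolds AFF1, AFF3 and AFF4, the elongation factors ELL and ELL2, the kinase CDK9 with its partner cyclin T1 (CCNT1), and the 7SK-binding protein LARP7. A chromatin region was taken as belonging to one of these 10 genes when it overlapped the gene's RefSeq span on GRCh38 extended by 3000 bp on both sides. This gave 50 of the 55650 regions in the deposited tables, 43 of 35154 for RBBP4 and 7 of 20496 for P300. The genes had been selected on results of these same tables, namely the listed RBBP4 and P300 ratios and the authors' p-values at them. How many carry a listed region, in which direction and with which p-value, is therefore a description of the choice and was not tested. For comparison, 51.6% of protein-coding genes had any listed RBBP4 region and 23.6% any listed P300 region.

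Transcripts of many genes stall shortly after their start, and release needs the kinase P-TEFb, made of CDK9 and a T-type cyclin. The 7SK RNA, with LARP7, MEPCE and HEXIM proteins, keeps P-TEFb inactive, while the super elongation complex carries active P-TEFb to the polymerase on an AFF scaffold that also binds ELL factors and a YEATS reader. MLLT1 and MLLT3 read acylated histone lysines, the kind of mark that P300 writes. Several of these genes, MLLT1, MLLT3, AFF1, AFF3, AFF4 and ELL among them, are fusion partners of KMT2A in leukaemia.

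The study used the established cell line NCI-H69, grown from a human small cell lung cancer. The arms were siRNA against CSNK2B, which encodes the regulatory subunit of casein kinase 2, and a control siRNA without a target, both delivered with Lipofectamine RNAiMAX and harvested at 48 h. Chromatin was precipitated with an antibody to RBBP4, a histone-binding subunit of deacetylase and Polycomb complexes, or to P300, the acetyltransferase encoded by EP300. There were 8 libraries, with 1 ChIP and 1 input library per antibody and arm, the input libraries were not used here, and whether the siRNA was a single sequence or a pool is not given in the sources used here. With 1 library per arm no difference has a replicate check, and any difference between the antibodies cannot be told apart from their separate batch labels.

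Both tables list only regions with a deposited p-value below 0.05, so nothing can be said of genes at which no region is listed. Reads in all tested regions, worked out from steps in the authors' RPKM without a check (reads scaled to region length and to the library total), were 1207945 after knockdown and 833181 in the control for RBBP4, and 946392 after knockdown and 1092789 in the control for P300. For 50 of the 50 regions described here (43 for RBBP4 and 7 for P300) the arm in which the authors' peak was called was also the higher one. The same held for 35151 of all 35154 listed RBBP4 regions and 20496 of all 20496 listed P300 regions, so it is no trait of these genes. The arms were read from columns named as sample and control, for RBBP4 by initials alone, so a swap of them would turn the directions given. Neither table listed a region at CSNK2B, so the knockdown itself could not be checked. The neuroendocrine genes NEUROD1, INSM1, SYP and CHGA had no listed region, and NCAM1 had 4 for RBBP4 and 1 for P300. Of genes of other cell types, CD3E and CD3D had none, COL1A1, COL1A2 and VIM had 2 each for RBBP4, and COL1A1 had 1 and COL1A2 had 2 for P300. Occupancy does not measure expression, so these tables do not check the cell type.

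Listed regions overlapped the annotated promoters of 5 of the 9 member genes that the RefSeq promoter table holds, taking the 250 bases before a start and the first bases after it. In each case it was an RBBP4 region that was higher after knockdown with an adjusted p under 0.05 by the authors' deposited table. Over all 15843 protein-coding genes of the promoter table the share was 24.1%, or 28.3% with any higher listed region. The sequences show, for each of these 5 genes, a window where the RBBP4 difference and a transcription start coincide. A further covered window, at the downstream start of LARP7, is counted below but not printed. Each is the 250 bases before the start, 5′ to 3′ along the gene, from RefSeq (GRCh38.p14). Capitals mark the motifs searched on both strands, described below them. The windows are chr19:6279976-6280225 on the minus strand for MLLT1, chr9:20622500-20622749 on the minus strand for MLLT3, chr4:87007021-87007270 on the plus strand for the downstream start of AFF1, chr12:48716708-48716957 on the minus strand for CCNT1 and chr4:112636893-112637142 on the plus strand for the upstream start of LARP7.
MLLT1: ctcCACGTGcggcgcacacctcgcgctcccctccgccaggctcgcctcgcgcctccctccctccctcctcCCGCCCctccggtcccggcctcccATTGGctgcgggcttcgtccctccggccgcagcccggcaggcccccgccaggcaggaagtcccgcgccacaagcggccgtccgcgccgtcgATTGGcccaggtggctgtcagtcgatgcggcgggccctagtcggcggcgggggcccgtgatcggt
MLLT3: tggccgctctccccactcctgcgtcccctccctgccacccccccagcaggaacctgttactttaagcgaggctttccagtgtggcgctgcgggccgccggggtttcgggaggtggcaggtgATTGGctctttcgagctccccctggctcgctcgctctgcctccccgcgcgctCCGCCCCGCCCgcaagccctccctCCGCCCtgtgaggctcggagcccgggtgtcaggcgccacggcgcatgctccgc
AFF1: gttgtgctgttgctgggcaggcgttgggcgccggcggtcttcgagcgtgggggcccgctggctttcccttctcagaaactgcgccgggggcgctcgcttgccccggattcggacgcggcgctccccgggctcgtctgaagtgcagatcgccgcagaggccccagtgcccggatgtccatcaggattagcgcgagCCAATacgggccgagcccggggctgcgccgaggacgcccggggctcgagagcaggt
CCNT1: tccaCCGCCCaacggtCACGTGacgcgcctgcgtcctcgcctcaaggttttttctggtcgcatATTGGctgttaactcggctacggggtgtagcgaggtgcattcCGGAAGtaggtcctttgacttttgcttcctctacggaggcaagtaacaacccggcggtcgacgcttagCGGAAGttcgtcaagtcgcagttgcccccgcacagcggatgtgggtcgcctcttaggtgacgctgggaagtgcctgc
LARP7: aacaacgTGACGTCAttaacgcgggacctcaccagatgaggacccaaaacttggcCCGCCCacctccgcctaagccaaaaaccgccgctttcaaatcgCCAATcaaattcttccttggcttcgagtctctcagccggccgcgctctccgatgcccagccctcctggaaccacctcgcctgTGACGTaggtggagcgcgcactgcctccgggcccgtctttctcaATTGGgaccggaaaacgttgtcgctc

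The motifs were the GC box (GGGCGG), the CCAAT box (CCAAT), the E-box (CACGTG), an ETS core (CGGAAG), a core of the cyclic AMP response element (TGACGT) and the TATA box (TATAAA), each with its reverse complement. Where adjacent or palindromic matches overlap, the capitals run together, as in the pair of response-element cores near the left end of the LARP7 window. A CCAAT box was present in 5 of the 6 covered windows, missing from the unprinted LARP7 window, and in 6 of all 13 member windows, against 32.7% of the 22199 windows of protein-coding genes. A GC box was present in 5 of the 6, missing from AFF1, and in 9 of the 13, against 53.7% of all windows. The E-box was found in MLLT1 and CCNT1 (7.37% of all windows), the ETS core in CCNT1 alone of the 6 (20.2%), the response-element core in LARP7 alone (8.00%), and the TATA box in none of the 6 (9.005%). GC content of the 6 windows lay between 58.4% in the unprinted LARP7 window and 77.2% in MLLT1, beside a median of 62% over all windows. These matches describe letters in a window and say nothing about a factor at it.

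RBBP4 read density at these genes was mostly higher after CSNK2B knockdown. Of 43 listed RBBP4 regions 36 were higher and 7 lower, which is 83.7% higher, beside 68.8% of all listed RBBP4 regions. An adjusted p under 0.05 by the authors' deposited table belonged to 25 of the higher regions (58.1% of the 43, beside 48.3% of all listed regions) and 2 of the lower ones (beside 8.94%). Lower regions made up 31.2% of the whole list. The median log2 ratio of RPKM, with a pseudocount of 1 that understates ratios of low regions, was 1.63 over the 43 regions and 1.49 over all listed RBBP4 regions. MLLT3 alone held 17 of the 43 regions. Without it 20 of the other 26 regions were higher, and their median log2 ratio was 1.56. An adjusted p under 0.05 by the authors' deposited table belonged to 15 of those 20. Among higher regions alone, the median log2 ratio was 1.67 at these genes and 1.86 over all listed RBBP4 regions. Among lower regions alone, the median was -3.19 at these genes and -2.76 over all listed ones.

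Counted by gene, 10 of 10 had at least 1 higher RBBP4 region with an adjusted p under 0.05 by the authors' deposited table, beside 38.3% of 20037 protein-coding genes. The background share differed by gene length and was 61.6% for genes of 100 kb or longer, to which MLLT3, AFF1 and AFF3 belong, and 33.7% for shorter ones, to which the other 7 belong. A lower region by the same rule lay at 2 of 10, MLLT3 and ELL2, beside 5.6% of all protein-coding genes (20.7% of long and 2.57% of shorter ones). By a 2-fold RPKM ratio 10 of 10 had a higher region, beside 45.4% of all (71.3% of long and 40.1% of shorter genes). A 2-fold lower region lay at 4 of 10, MLLT3, AFF3, ELL and ELL2, beside 14.8% of all (46.8% of long and 8.34% of shorter genes). The genes were selected on these same ratios and p-values, so the counts describe the choice and were not tested against these shares.

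In the 36 higher regions RPKM ran from 24.1 to 122 after knockdown, with a median of 37.7, and from 3.22 to 23.03 in the control, with a median of 12.2. The ranges did not overlap, a gap that listing by p-value and splitting by direction favour. In the 7 lower regions RPKM ran from 0 to 6.30 after knockdown and from 27.2 to 53.3 in the control. Higher regions were also the deeper and wider ones, with 29 reads in both libraries together and 543 bp at the median, against 13 reads and 395 bp for lower regions. The same held over all listed RBBP4 regions, with medians of 24 reads and 476 bp for higher and 13 reads and 371 bp for lower ones. Folds given below divide knockdown by control reads after scaling to the tested regions, with 95% exact (Clopper-Pearson) intervals that cover counting error only. The interval lay wholly above 1 for 22 of the 36 higher regions and wholly below 1 for 7 of the 7 lower ones.

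**Figure D1:**
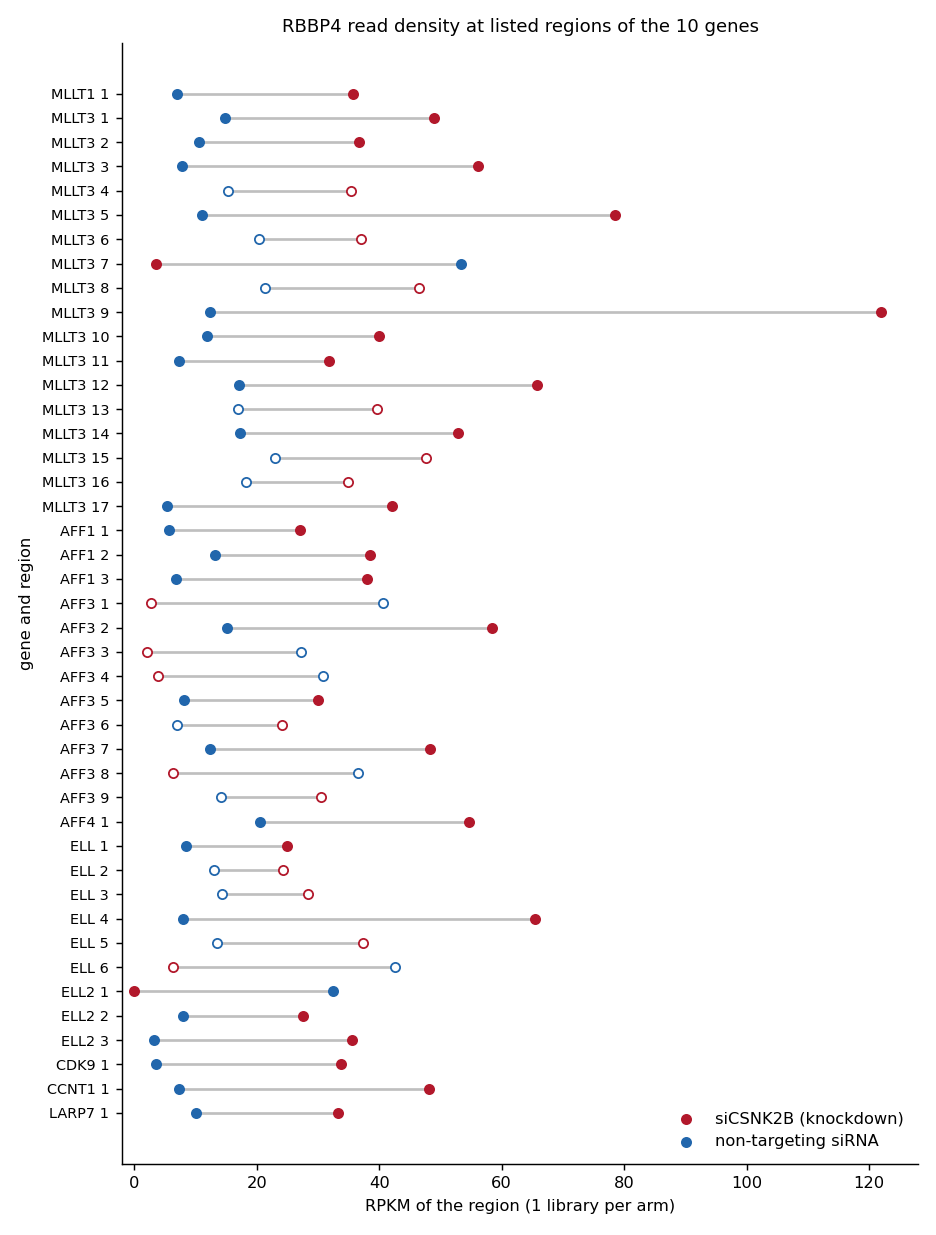
RPKM of each listed RBBP4 region of the 10 genes (x axis) in the knockdown library (red) and the control library (blue), 1 library per arm, with regions numbered along the chromosome within each gene. Filled points have an adjusted p under 0.05 by the authors' deposited table; 36 of 43 regions have the knockdown point on the right, and MLLT3 region 9 is the widest gap at 122 against 12.4 RPKM.

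Among the YEATS readers, MLLT1 carried 1 RBBP4 region, at chr19:6280107-6280453, which lies 132 bp upstream of the annotated start and overlaps 119 of the 250 bases of the promoter window printed above. It held 15 reads (35.8 RPKM) after knockdown and 2 reads (6.92 RPKM) in the control. Its density was 5.17-fold higher (1.20 to 46.6), with 0.0231 as adjusted p from the authors' deposited table. No P300 region was listed at MLLT1.

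MLLT3, also called AF9, carried the most RBBP4 regions of the 10 genes, 17 along its 281 kb span on chromosome 9 (chr9:20341669-20622499). Of these 16 were higher after knockdown and 1 was lower, and 10 of the higher ones had an adjusted p under 0.05 by the authors' deposited table. As many or more such higher regions were found at 70 of 20037 protein-coding genes, MLLT3 included, of which 69 are among the 3356 genes of 100 kb or longer. Within 5 Mb on either side of the gene, 145 other RBBP4 regions were listed, of which 63.4% were higher, against 94.1% within the gene. They stood at 14.5 regions per Mb, against 59.3 per Mb inside the extended span. Around the other member genes the share of higher regions ran from 57.1% at ELL2 to 94.4% at MLLT1. At AFF3 it was 68.8%, where 5 of the gene's own 9 regions were higher. The contrast at MLLT3 is therefore not shared by all members.

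The largest fold among the higher MLLT3 regions was at region 9 (chr9:20537325-20538580), which is centred 84.5 kb into the gene. It held 185 reads (122 RPKM) after knockdown and 13 reads (12.4 RPKM) in the control. That is 9.82-fold higher (5.60 to 18.8), with 5.34e-20 as adjusted p from the authors' deposited table. A second region follows after a gap of 222 bp and was higher too, with 34 reads after knockdown and 7 in the control.

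The region over the MLLT3 start, region 17 (chr9:20622105-20623678), held 80 reads (42.1 RPKM) after knockdown and 7 reads (5.34 RPKM) in the control. It covers all 250 printed bases and was 7.88-fold higher (3.65 to 20.2), with 1.22e-10 as adjusted p from the authors' deposited table. Region 5 (chr9:20394857-20396270), centred 227 kb from the start, held 134 reads (78.5 RPKM) after knockdown and 13 reads (11.03 RPKM) in the control, 7.11-fold higher (4.02 to 13.7). High read density after knockdown was thus found both at the start and deep in the gene body.

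Of the 16 higher MLLT3 regions 13 stood in groups, and regions 1, 6 and 8 stood alone. At the start 4 regions lay within 4.12 kb of it, 3 lay between 59.5 and 64.1 kb, 2 between 83.0 and 85.2 kb, and 4 between 226 and 240 kb. Apart from the 3 regions described, the 13 other higher regions held 17 to 100 reads (31.8 to 65.7 RPKM) after knockdown and 3 to 18 reads (7.29 to 23.03 RPKM) in the control. Their folds ran from 1.81 to 7.24, and 7 of the 13 had an adjusted p under 0.05 by the authors' deposited table. None of them was at 0 in the control. Region 1, among them, has LOC124902129 within 3000 bp, so its assignment is shared.

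The 1 lower MLLT3 region, region 7 (chr9:20464501-20464973), lay 158 kb from the start between higher ones. It held 2 reads (3.50 RPKM) after knockdown and 21 reads (53.3 RPKM) in the control. Its density was 15.2-fold lower (3.72 to 134), with 0.00188 as adjusted p from the authors' deposited table. Its control value was the highest of all 43 RBBP4 regions in that library, so this site is high in the control library and the other MLLT3 sites are high in the knockdown library.

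Both listed P300 regions at MLLT3 were lower after knockdown and lay in the same stretch of the gene. The region chr9:20460594-20460929, which is 3572 bp from the lower RBBP4 region, held 3 reads (9.43 RPKM) after knockdown and 12 reads (32.7 RPKM) in the control, 3.46-fold lower with an interval from 0.935 to 19.1 that includes no change. The region chr9:20439052-20439339 held 0 reads after knockdown and 10 reads (31.8 RPKM) in the control. With a floor of 3 reads for the library at 0 this is at least 2.89-fold lower, and the exact limit is 1.94. The RBBP4 region nearest to it, 3344 bp away, was higher. Both P300 regions had 0.260 as adjusted p from the authors' deposited table, so neither passed.

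**Figure D2:**
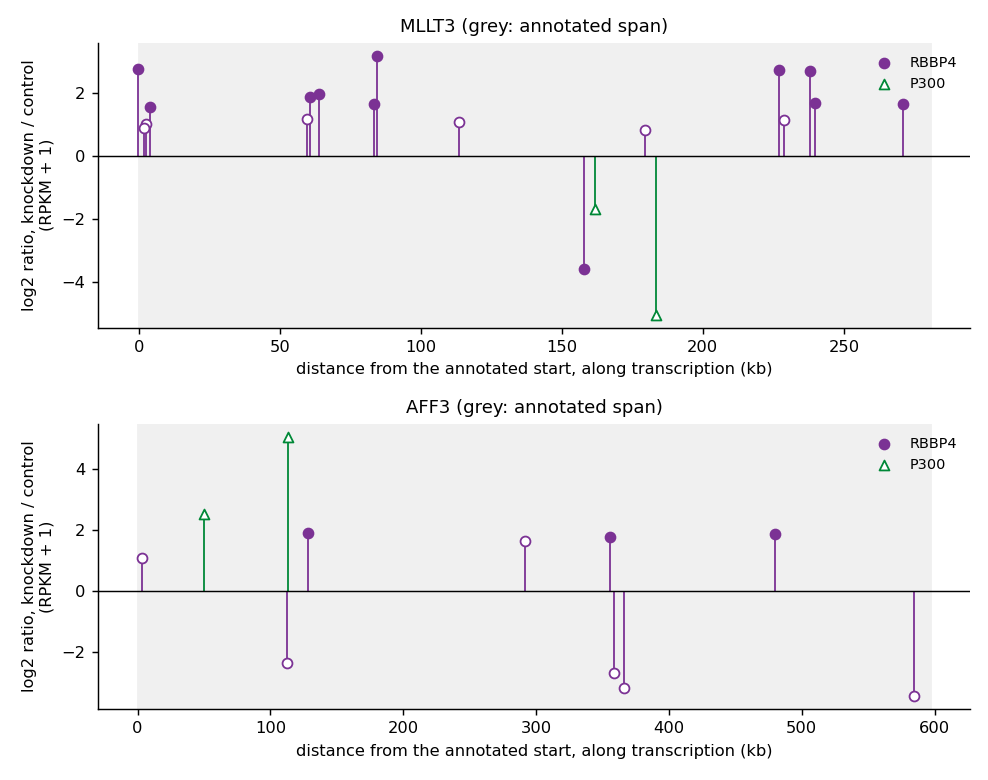
Log2 ratio of RPKM plus 1, knockdown over control (y axis), of each listed region along MLLT3 and AFF3, by distance in kb from the annotated start (x axis); circles are RBBP4, triangles P300, filled where the authors' adjusted p is below 0.05. MLLT3 has 16 RBBP4 regions above 0 and 1 below, with both P300 regions below 0, while AFF3 has 5 RBBP4 regions above 0 and 4 below.

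Of the AFF scaffolds, AFF1 (AF4) had 3 RBBP4 regions, each higher. The region chr4:87006607-87007888 covers the downstream promoter printed above and held 42 reads (27.1 RPKM) after knockdown and 6 reads (5.62 RPKM) in the control, 4.83-fold higher (2.04 to 13.9, 2.58e-05 as adjusted p from the authors' deposited table). The next, chr4:87009008-87009372, held 17 reads (38.6 RPKM) after knockdown and 4 reads (13.2 RPKM) in the control, 2.93-fold higher with an interval from 0.956 to 11.97 and 0.0492 as adjusted p from the authors' deposited table. The third, chr4:87068403-87068925, held 24 reads (38.0 RPKM) after knockdown and 3 reads (6.88 RPKM) in the control, 5.52-fold higher (1.68 to 28.6, 0.00171 as adjusted p from the authors' deposited table). The upstream start of AFF1, at the edge of its span, had no listed RBBP4 region. The 1 P300 region of AFF1, chr4:87081403-87081587, held 0 reads after knockdown and 7 reads (34.6 RPKM) in the control, at least 2.02-fold lower with an exact limit of 1.25 and 0.260 as adjusted p from the authors' deposited table.

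AFF3 (LAF4), the longest of the genes at 597 kb, had 9 RBBP4 regions that went both ways, 5 higher and 4 lower. The 3 higher regions with an adjusted p under 0.05 by the authors' deposited table lay inside the gene body. The region chr2:99662432-99663225 held 56 reads (58.4 RPKM) after knockdown and 10 reads (15.1 RPKM) in the control, 3.86-fold higher (1.95 to 8.49, 8.87e-06 as adjusted p from the authors' deposited table). LOC124906051 lies within 3000 bp of that region, so the assignment of the region is shared. At chr2:99786488-99787371 the values were 32 reads (29.97 RPKM) after knockdown and 6 reads (8.15 RPKM) in the control, 3.68-fold higher (1.52 to 10.8). At chr2:100013948-100014238 they were 17 reads (48.4 RPKM) after knockdown and 3 reads (12.4 RPKM) in the control, 3.91-fold higher (1.13 to 20.8). The other 2 higher regions did not pass: one held 22 reads after knockdown and 7 in the control, 2771 bp inside the gene start, and one held 10 after knockdown and 2 in the control.

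The 4 lower AFF3 regions were shallow, and none had an adjusted p under 0.05 by the authors' deposited table. The region chr2:99557888-99558183 held 1 read after knockdown and 10 in the control, and chr2:99776367-99776763 held 1 after knockdown and 9 in the control. The region chr2:99783891-99784319 held 2 after knockdown and 11 in the control, and chr2:100029732-100030125 held 3 after knockdown and 12 in the control. In the same order they were 14.5-fold, 13.05-fold, 7.97-fold and 5.80-fold lower. Their RPKM was 2.09 to 6.30 after knockdown and 27.2 to 40.5 in the control. Of these, 2 lie within 10 kb of the higher region at chr2:99786488-99787371, with gaps of 2168 bp and, between the lower pair, 7127 bp.

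P300 at AFF3 was higher after knockdown in 2 regions. The region chr2:100029102-100029428 held 10 reads (32.3 RPKM) after knockdown and 0 reads in the control, at least 3.85-fold higher with an exact limit of 2.59. It lies 304 bp from the last of the lower RBBP4 regions. P300 and RBBP4 were thus listed in opposite directions side by side, in libraries with different batch labels. The region chr2:100092407-100092643 held 11 reads (49.04 RPKM) after knockdown and 2 reads (7.72 RPKM) in the control, 6.35-fold higher (1.39 to 59.0). The authors' deposited table gives 0.260 and 0.293 as their adjusted p, so neither passed.

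AFF4, a core scaffold of the complex, had 1 RBBP4 region and no listed P300 region. The region, chr5:132877898-132878366, lies 85268 bp from the annotated start, near the far end of the gene, and not at the promoter. It held 31 reads (54.7 RPKM) after knockdown and 8 reads (20.5 RPKM) in the control, 2.67-fold higher (1.20 to 6.73), with 0.00820 as adjusted p from the authors' deposited table. LEAP2, an antimicrobial peptide gene, lies within 3000 bp of this region, so its assignment is shared.

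At ELL, the founding elongation factor of the family, 6 RBBP4 regions were listed, and none of them lay near the start. The one with the largest fold, chr19:18464563-18464866, held 24 reads (65.4 RPKM) after knockdown and 2 reads (7.90 RPKM) in the control, 8.28-fold higher (2.05 to 72.3), with 0.000508 as adjusted p from the authors' deposited table. Beyond the far end of the gene, chr19:18439551-18440114 held 17 reads (24.95 RPKM) after knockdown and 4 reads (8.51 RPKM) in the control, 2.93-fold higher with an interval from 0.956 to 11.97 and 0.0492 as adjusted p from the authors' deposited table. This one also lies within 3000 bp of ISYNA1, an inositol phosphate synthase gene. The other 3 higher regions held 12 to 20 reads after knockdown and 3 to 7 in the control, with folds of 1.87, 1.97 and 2.76 and intervals that include 1. In the opposite direction chr19:18493486-18493880 held 3 reads (6.29 RPKM) after knockdown and 14 reads (42.5 RPKM) in the control, 6.77-fold lower (1.89 to 36.7), with 0.0668 as adjusted p from the authors' deposited table.

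ELL2, known for its part in immunoglobulin RNA processing in plasma cells, had 3 RBBP4 regions. Outside the edge of its span, chr5:95962054-95962426 held 16 reads (35.5 RPKM) after knockdown and 1 read (3.22 RPKM) in the control, 11.04-fold higher (1.71 to 463, 0.00473 as adjusted p from the authors' deposited table). Just inside the same edge, chr5:95961227-95961677 held 15 reads (27.5 RPKM) after knockdown and 3 reads (7.98 RPKM) in the control, 3.45-fold higher with an interval from 0.976 to 18.6 and 0.0492 as adjusted p from the authors' deposited table. CAST, the calpastatin gene, and a non-coding RNA lie within 3000 bp of both of these regions, so their assignment is shared. Inside the gene chr5:95928860-95929155 held 0 reads after knockdown and 8 reads (32.4 RPKM) in the control, at least 3.87-fold lower with an exact limit of 2.47 and 0.0463 as adjusted p from the authors' deposited table. The P300 region chr5:95896968-95897146 held 11 reads (64.9 RPKM) after knockdown and 2 reads (10.2 RPKM) in the control, 6.35-fold higher (1.39 to 59.0), with 0.293 as adjusted p from the authors' deposited table.

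Both P-TEFb genes had a single higher RBBP4 region at the start side and no listed P300 region. For CDK9, the kinase, it was chr9:127785100-127785442, which ends 592 bp before the annotated start. It held 14 reads (33.8 RPKM) after knockdown and 1 read (3.50 RPKM) in the control, 9.66-fold higher (1.47 to 408), with 0.0117 as adjusted p from the authors' deposited table. The microRNA genes MIR2861 and MIR3960 and a non-coding RNA lie within 3000 bp of it. For CCNT1, chr12:48716401-48717225 covers the start and the whole printed window, and it held 48 reads (48.2 RPKM) after knockdown and 5 reads (7.27 RPKM) in the control. That is 6.62-fold higher (2.65 to 21.3), with 8.83e-07 as adjusted p from the authors' deposited table, and no other gene lies within 3000 bp of that region.

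LARP7, which stabilises the 7SK RNA, was the only one of the 10 genes with regions of both antibodies on the same bases. The RBBP4 region chr4:112636601-112637792 spans both annotated starts and held 48 reads (33.3 RPKM) after knockdown and 10 reads (10.1 RPKM) in the control, 3.31-fold higher (1.65 to 7.34), with 0.000116 as adjusted p from the authors' deposited table. All 179 bp of the P300 region chr4:112637183-112637361 lie within it, between the 2 starts and beginning 40 bp after the upstream one. There P300 had 14 reads (82.6 RPKM) after knockdown and 0 reads in the control, at least 5.39-fold higher with an exact limit of 3.83. Its deposited p was 0.000352 and its adjusted p 0.260 (both from the authors' deposited table), so it did not pass. ZGRF1, a helicase gene, lies within 3000 bp of both regions, so their assignment is shared. Such an overlap was not confined to these genes. At IWS1, another elongation gene, a higher P300 region also lay within a higher RBBP4 region. How often this occurs over all listed regions was not counted.

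The log2 ratio of the LARP7 P300 region, 6.39, ranked 1 of 20496 listed P300 regions. That rank rests on RPKM, which is largest for narrow regions, and 179 bp is the smallest width in the table, which 2046 regions have. By reads alone, 18 other regions with 0 control reads, among those whose reads came out whole, held more than 14 after knockdown. A listed higher P300 region over a promoter window was rare, at 57 of 15843 protein-coding genes (0.36%), and LARP7 was 1 of them. A lower one was listed at 0.347%, and at 0 of the 9 members with a window.

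P300 regions at the 10 genes were few and split. Of 7, 4 were higher and 3 lower after knockdown, beside 34.7% higher and 65.3% lower over all listed P300 regions. Counted by gene with a 2-fold RPKM ratio, 3 of 10 had a higher region (AFF3, ELL2 and LARP7), beside 11.5% of protein-coding genes (39.5% of long and 5.89% of shorter ones). A lower region lay at 2 of 10 (MLLT3 and AFF1), beside 17.5% (57.3% of long and 9.47% of shorter ones), and both of these genes are long. In the 7 regions the libraries held 7 to 15 reads together, and 0 of 7 had an adjusted p under 0.05 by the authors' deposited table, beside 0 of 20496 in the whole table.

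**Figure D3:**
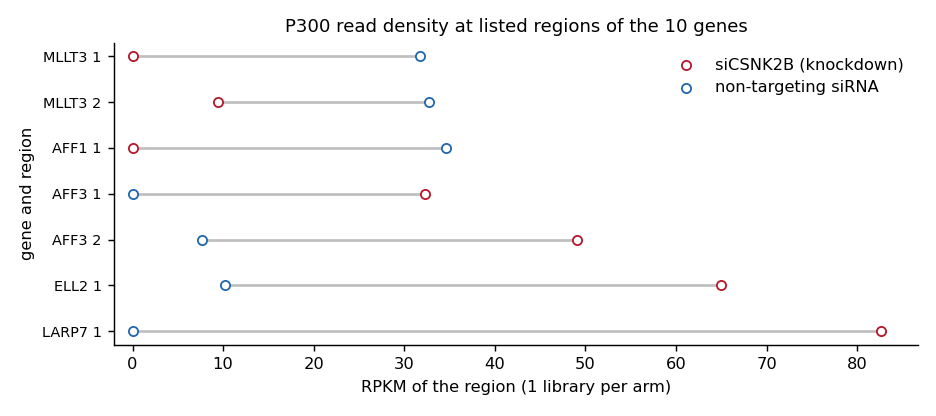
RPKM of each listed P300 region of the 10 genes (x axis) in the knockdown library (red) and the control library (blue), 1 library per arm. All points are open because no region had an adjusted p under 0.05 by the authors' deposited table; the LARP7 region has the widest gap, 82.6 against 0 RPKM.

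Within 3000 bp of either end of a gene's span lay 13 of the 43 regions, at 9 of the 10 genes, and 13 of the 13 were higher. Over all 7870 listed RBBP4 regions that close to an end of a protein-coding gene the share of higher ones was 93.3%, so the share at these genes lies near the background. The 7 lower regions were all farther inside MLLT3, AFF3, ELL and ELL2. A lower RBBP4 region on a promoter window was listed at 12 of 15843 protein-coding genes (0.0757%) and at 0 of the 9 members with a window. Control read density at the 5 regions over promoters, all of them higher, was 5.34 to 10.1 RPKM. It was 3.22 to 23.03 RPKM over all 36 higher regions and 27.2 to 53.3 RPKM at the 7 lower ones. These sets were split by direction, so the gap does not compare promoters with other places.

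**Figure D4:**
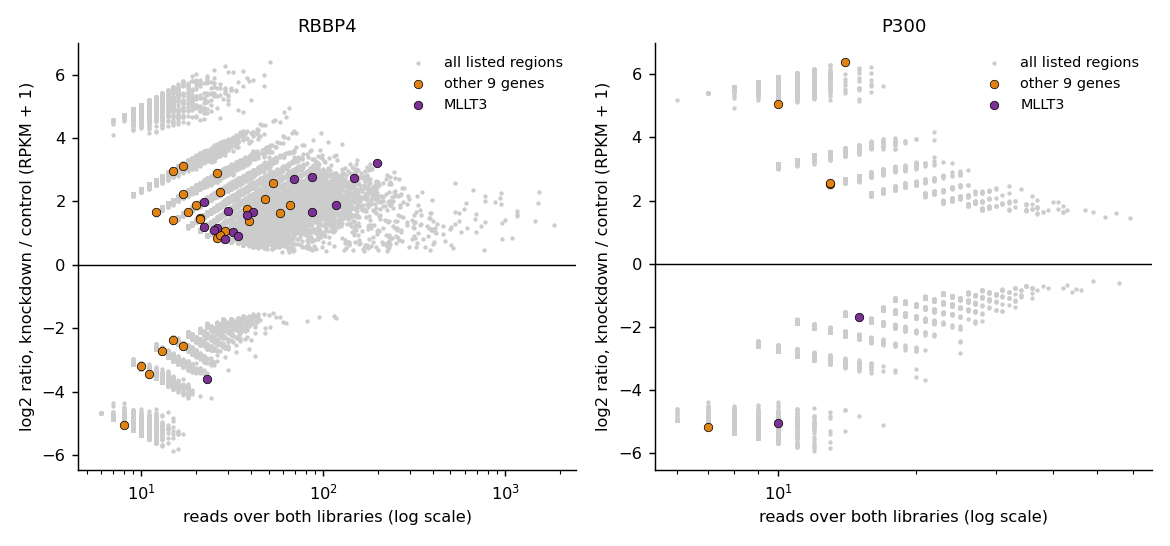
Log2 ratio of RPKM plus 1, knockdown over control (y axis), against reads over both libraries (x axis, log scale) for RBBP4 (left) and P300 (right). Grey points are listed regions whose reads came out whole, purple points MLLT3 and orange points the other 9 genes; MLLT3 region 9, at 198 reads and a log2 ratio of 3.195, is the deepest member region, and P300 member regions have 7 to 15 reads.

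The limit of 3000 bp lay between neighbouring regions of ELL with like values. Just inside it, the ELL region 2549 bp beyond the span held 17 reads after knockdown and 4 in the control. Just outside it, the next ELL region, at 4273 bp, held 16 after knockdown and 4 in the control. A P300 region 5222 bp from MLLT3 held 3 reads after knockdown and 12 in the control, the same direction as the 2 inside the gene. A P300 region 9551 bp from AFF1 held 10 after knockdown and 0 in the control, the opposite direction to the one inside that gene.

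Many other genes of elongation control also had higher RBBP4 regions. A list of 42 such genes was drawn up from their roles with results of these tables known. Of these, 32 (76.2%) had a higher RBBP4 region with an adjusted p under 0.05 by the authors' deposited table, and 3 (7.14%) a lower one. Over protein-coding genes the share with a higher one was 38.3% (61.6% of long and 33.7% of shorter genes). For a lower one it was 5.6% (20.7% of long and 2.57% of shorter genes). The list was not split by gene length, and RN7SK in it is not protein-coding. Of the remaining 7SK particle genes 4 of 4 had a higher region: MEPCE, the capping enzyme of 7SK, HEXIM1 and HEXIM2, the inhibitors of P-TEFb, and RN7SK, the RNA itself. MEPCE had 3 such regions, the deepest with 50 reads (36.2 RPKM) after knockdown and 4 reads (4.19 RPKM) in the control, 8.62-fold higher (3.17 to 32.9). HEXIM1 had 4 such regions, 1 of them with 25 reads (42.2 RPKM) after knockdown and 3 reads (7.35 RPKM) in the control, and RN7SK had 2, the deeper with 50 reads (35.3 RPKM) after knockdown and 18 reads (18.4 RPKM) in the control, 1.92-fold higher (1.10 to 3.49). HEXIM2 had 2, the deeper with 55 reads (31.1 RPKM) after knockdown and 8 reads (6.57 RPKM) in the control, 4.74-fold higher (2.25 to 11.5). These regions were chosen for mention after their values were seen.

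Of the T-type and K-type cyclins and related kinases 3 of 4 had a higher RBBP4 region with an adjusted p under 0.05 by the authors' deposited table. The share over protein-coding genes was 38.3%. CCNT2, the second T-type cyclin, had a region with 13 reads (39.7 RPKM) after knockdown and 0 reads in the control library, at least 2.99-fold higher, and CDK13, a kinase of the polymerase tail, one with 14 reads (38.1 RPKM) after knockdown and 0 reads in the control library, at least 3.22-fold higher. AFF2, the remaining AFF paralogue, had a region with 15 reads (32.3 RPKM) after knockdown and 0 reads in the control library, at least 3.45-fold higher. A further MEPCE region held 12 reads (23.2 RPKM) after knockdown and 0 reads in the control library, at least 2.76-fold higher. The exact limits of these 4 folds were 2.10 for CCNT2, 2.29 for CDK13, 2.47 for AFF2 and 1.92 for MEPCE. Of the pausing factors, 3 of 6 genes of the DSIF and NELF complexes had a higher region by the same adjusted p, beside that 38.3%. Groups this small were not ranked or tested. Lower regions with an adjusted p under 0.05 by the authors' deposited table lay at 3 genes. CDC73, a PAF1 complex subunit, counted 2 reads after knockdown and 13 in the control. SUPT16H, a FACT histone chaperone subunit, had 2 after knockdown and 15 in the control. KMT2A, the methyltransferase that several of the member genes fuse with, had 0 after knockdown and 9 in the control. Each of the 3 also had a higher region that passed, which at CDC73 held 36 reads after knockdown and 7 in the control. The one at SUPT16H held 17 after knockdown and 3 in the control, and the one at KMT2A 25 after knockdown and 3 in the control. A region at CTR9, another PAF1 complex subunit, where 3 reads after knockdown stood against 13 in the control, was lower without passing, while another at that gene was higher with 31.6 RPKM after knockdown and 9.82 RPKM in the control (0.00977 as adjusted p from the authors' deposited table).

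For P300 the wider list gave 4 of 42 genes with a 2-fold higher region (9.52%, beside 11.5% of protein-coding genes) and 8 of 42 with a lower one (19.0%, beside 17.5%), shares close to the background. NELFCD, a NELF subunit, had 16 reads (77.9 RPKM) after knockdown and 2 reads (8.43 RPKM) in the control, 9.24-fold higher (2.17 to 82.8). CCNK, the cyclin of CDK12 and CDK13, had 2 reads (11.4 RPKM) after knockdown and 10 reads (49.5 RPKM) in the control, 4.33-fold lower with an interval from 0.923 to 40.6. Higher regions also lay at SUPT6H, a histone chaperone, where 31 reads after knockdown stood against 9 in the control, and at IWS1, its partner, with 21 after knockdown and 7 in the control. Lower ones lay at GTF2F2, a TFIIF subunit, with 2 after knockdown and 9 in the control, at CDC73 with 4 after knockdown and 16 in the control, and at AFF2 with 3 after knockdown and 12 in the control. None passed: the authors' deposited table gives 0.260 to 0.311 as adjusted p for these 7 regions.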

How the data were processed

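ChIP libraries of RBBP4 and P300 were compared between CSNK2B and non-targeting siRNA, 1 library per arm. The submitters' processing notes name GRCh38 and, without roles, ChIPseeker 1.28.3, DiffBind 3.4.11, MACS2 2.2.7.1, Bowtie2 2.4.5, Trim Galore 0.6.7 and FastQC. The authors deposited RPKM values per region and library, and per the file headers a log2 fold change and mean log2 CPM, a p-value and an adjusted p-value. From RPKM, width and an inferred library total, which was not checked, reads came out whole (tolerance 0.01) in 50 of 50 member regions, 99.4% of P300 and 98.3% of RBBP4 regions. In simulated reads 100% of the 20496 P300 and 35154 RBBP4 regions returned their reads.

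Folds were scaled to the reads in all tested regions. The authors' log2 fold change uses another library ratio, taken here to be that of whole libraries, which was not checked. It differs by 0.58 for RBBP4 and -0.44 for P300 on the log2 scale. A library at 0 was set to a floor of 3 reads. Intervals and floors cover counting error only. No test of the conditions was possible, and the deposited p-values compare these libraries.

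Gene spans, promoter windows and sequences came from RefSeq (GRCh38.p14), without exons. Member genes, gene lists and tests were chosen with earlier results of these data known. All listed regions were described for genes with up to 6 per antibody, beyond that the 3 most extreme per direction and the one nearest an end. Of the wider list, the 4 genes per antibody and direction with the largest ratio among regions of at least 10 reads were eligible. Some genes that these rules select are not reported here. Python 3.11.15, pandas 2.3.3 and scipy 1.17.1 were used. Every value column of the tables was mapped.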

Additional observations from a re-analysis of the deposited data

How the results depend on the processing

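No paired analysis was possible because each arm had 1 library and the labels carry no replicate numbers. For the same reason no library could be left out. Folds were also scaled by the library ratio in the authors' log2 fold change, taken to be that of whole libraries. This moved the median fold of RBBP4 member regions to 4.95, from 3.31 scaled to tested regions. For P300 the median fold moved to 2.83 from 3.85, which is a floored value of an AFF3 region at 0 in the control. Under this scaling 43 of 43 RBBP4 and 7 of 7 P300 folds kept their direction and stayed within their own intervals. Genes with a higher RBBP4 region stayed between 7 and 10 of 10 under every alternative run. With at least 20 reads, genes with a lower RBBP4 region numbered 1 by adjusted p (2 otherwise) and 1 by 2-fold ratio (4 otherwise), and P300 counts were 0 higher (3 otherwise) and 0 lower (2 otherwise), since no P300 member region was that deep and no median could be given. With an adjusted p below 0.01, 1 gene had a lower RBBP4 region. A limit of 1000 bp from the gene ends left 8 RBBP4 regions there, against 13 at 3000 bp. Median log2 ratios kept their sign at pseudocounts of 0.1 and 5 RPKM (1.72 and 1.33 for RBBP4, 2.65 and 2.09 for P300) and under that scaling. With folds scaled to tested regions, 22 of the 36 higher RBBP4 regions had counting intervals that exclude 1. The other 14 had intervals that include 1, though like all listed regions they had a deposited p-value below 0.05. Intervals were not recounted under whole-library scaling, which raised the RBBP4 folds, so this count can change with the scaling.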
